A study of Arabidopsis thaliana with 16 samples.

Results

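H2A monoubiquitination (H2Aub) and trimethylation of lysine 27 of histone H3 (H3K27me3) were set side by side over the genes of wild-type Arabidopsis thaliana seedlings. Both are Polycomb marks. H2Aub is written on histone H2A by the E3 ligases of Polycomb repressive complex 1 (PRC1), among them RING1A and BMI1A, and H3K27me3 is written by the SET-domain methyltransferases of Polycomb repressive complex 2 (PRC2), among them CLF and SWN. In plants H3K27me3 is known as a mark of genes that are held silent outside the organ or stage in which they act, and it commonly spreads over the gene body. H2Aub is known at many such genes, and also at genes that lack H3K27me3.

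The comparison used 5 of the 16 samples of the series, 3 H2Aub-Col and 2 H3K27me3-Col ChIP-seq libraries from Col-0 seedlings at 12 days after germination. The labels give no transgene or treatment for these samples. The deposited lists hold the broad peaks called in each library against input. A gene was counted as marked when a peak with a score over 30, that is, a −log10 q-value of more than about 3, overlapped it by at least 1 bp in at least 2 libraries of the mark. For H3K27me3 this means both libraries. All 33056 nuclear genes of the annotation were classed in this way, 27444 of them protein-coding. Whole seedlings hold many cell types, so 2 marks on the same gene need not lie in the same cell, on the same allele or on the same nucleosome. The authors describe the libraries as biological replicates, and the labels number them without saying whether each came from separately grown plants. The p-values thus measure only the spread between these libraries.

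The lists differed in how much sequence they held. The H2Aub lists held 8457, 12049 and 14728 peaks with a score over 30, covering 11.6, 15.4 and 21.2 Mb of the 119 Mb nuclear genome, and the H3K27me3 lists held 4913 and 5746 peaks covering 14.6 and 16.6 Mb. Genes with a peak numbered 9929, 13955 and 17881 for H2Aub, and 6620 and 7498 for H3K27me3. H2Aub replicate 1 was thus the smallest and replicate 3 the largest H2Aub list, and results that follow this order are given per library. The lists hold peaks and not reads, and the peak lists were not brought to equal read depth, so a gene without a peak is one in which none was called.

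H2Aub marked 14056 genes, 42.5% of all nuclear genes, and H3K27me3 marked 6507 genes, 19.7%. Both marks were found on 4191 genes (12.7%), H2Aub alone on 9865 (29.8%), H3K27me3 alone on 2316 (7.01%) and neither on 16684 (50.5%). Genes with both marks made up 64.4% of the H3K27me3 genes but only 29.8% of the H2Aub genes. Of the genes without H3K27me3, 37.2% had H2Aub. These counts are a description of the lists, since genes are not replicates and no test was made of the overlap.

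The spread of the classes was read from the 6 pairings of 1 H2Aub with 1 H3K27me3 library. Genes with both marks ranged from 3629 to 5495, H2Aub-only genes from 5848 to 13020, H3K27me3-only genes from 1759 to 3417 and unmarked genes from 13172 to 20136. H2Aub-only genes outnumbered H3K27me3-only genes in all 6. The share of H3K27me3 genes that carried H2Aub was 54.4% to 54.8% with H2Aub replicate 1, 62.2% to 62.3% with replicate 2 and 73.3% to 73.4% with replicate 3. That share therefore followed the size of the H2Aub list and hardly changed with the H3K27me3 library. With 1 H2Aub library left out and a peak asked of both others, H2Aub-only genes numbered 9604 without replicate 1, 6264 without replicate 2 and 6065 without replicate 3, against 9865 with all libraries. Genes with both marks numbered 2590 with a score over 60, and 2149 when all lists were cut to the same covered length.

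**Figure D1:**
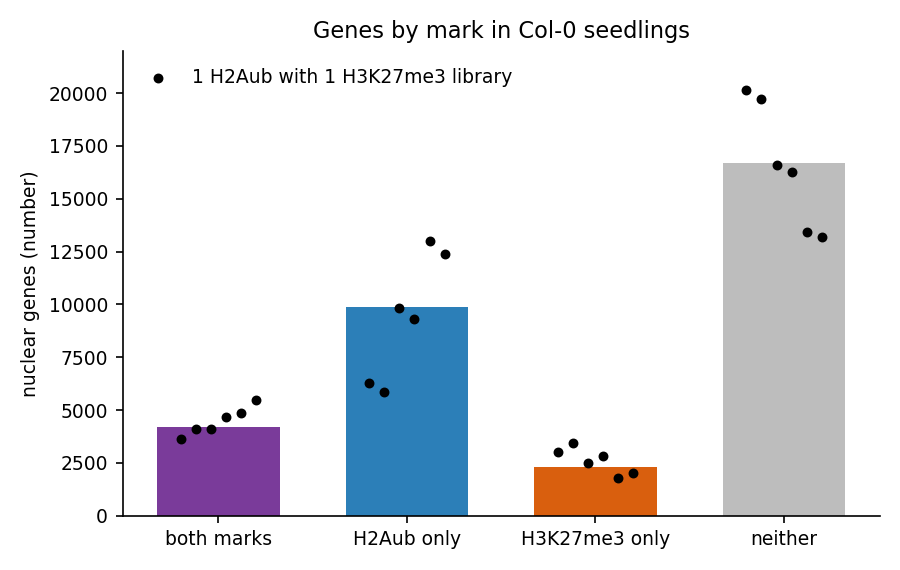
Bars give the number of nuclear genes in each class by the 2-library rule, and black points the number in each of the 6 pairings of 1 H2Aub with 1 H3K27me3 library, from 3629 to 5495 for genes with both marks. The points of H2Aub-only genes and of unmarked genes are the most spread, and those of H2Aub-only genes lie above those of H3K27me3-only genes throughout.

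The firmest members of each class had the same call in every library. A peak of both marks in all 5 libraries was found on 3387 genes. A further 5519 genes had H2Aub in all 3 libraries and no H3K27me3 peak, 1612 had H3K27me3 in both libraries and no H2Aub peak, and 12807 had no peak in any library. Many other calls were not the same in every library. H2Aub was found in 2 of its 3 libraries on 3831 of the H2Aub-only genes and on 804 of the genes with both marks, and 3877 unmarked genes had a peak in some library, with H2Aub in 1 library on 3528 and H3K27me3 in 1 library on 468. Of the H3K27me3-only genes, 704 had an H2Aub peak in 1 library, just under the 2 that the rule asks for, and of the H2Aub-only genes, 636 had an H3K27me3 peak in 1 library.

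The classes differed in gene length. Among protein-coding genes the median length was 1725 bp with both marks (quartiles 1120 and 2468 bp, 3910 genes), 2230 bp with H2Aub only (1486 and 3143 bp, 8929 genes), 1425 bp with H3K27me3 only (909 and 2213 bp, 1753 genes) and 2192 bp with neither (1409 and 3180 bp, 12852 genes), beside 2078 bp over all protein-coding genes. Genes with H3K27me3, with or without H2Aub, were thus shorter than the others. The gap between H2Aub-only and H3K27me3-only genes was not kept when the overlap rule was stricter: when a peak had to cover at least 50% of the gene, the medians were 1444, 1607, 1616 and 2382 bp for the classes in the order above. Over the 6 pairings the medians ran from 1710 to 1740 bp, from 2133 to 2295 bp, from 1369 to 1519 bp and from 2130 to 2246 bp, in the same order of classes. The ranges of H2Aub-only and unmarked genes overlapped, and no other pair of classes did. Genes with a single exon made up 28.1% of genes with both marks, 24.1% of H3K27me3-only genes, 21.5% of H2Aub-only genes and 13.7% of unmarked genes, beside 18.9% of all protein-coding genes.

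Across length bins, H3K27me3 was most frequent on protein-coding genes of 501 to 1000 bp, of which 32.8% were marked, and its share fell in each longer bin, down to 10.1% of genes over 4000 bp. The frequency of H2Aub varied less, from 42.4% of genes over 4000 bp to 50.8% of those from 1001 to 2000 bp, and was lower only in genes up to 500 bp, at 25.7%. Of the H3K27me3 genes, 45.4% carried H2Aub up to 500 bp, 64.0% from 501 to 1000 bp, and between 69.1% and 75.1% in the longer bins.

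**Figure D2:**
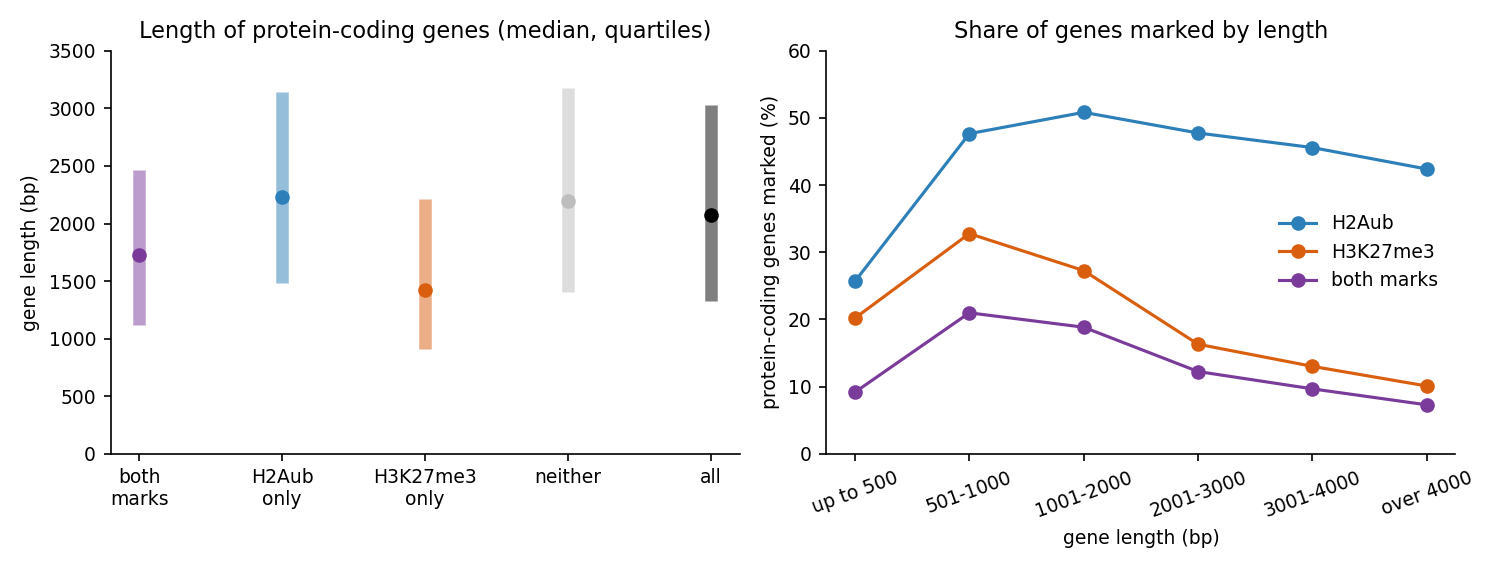
Left, median (point) and quartiles (bar) of the length in bp of protein-coding genes in each class and over all classes. Right, share in percent of protein-coding genes of each length bin marked by H2Aub, by H3K27me3 or by both, with H3K27me3 falling from 32.8% of genes of 501 to 1000 bp to 10.1% of genes over 4000 bp.

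The peaks of the marks differed in shape. The median width of an H2Aub peak was 1052, 966 and 1065 bp in the 3 libraries, a mean of 1028 bp ± 53.6 (SD, n = 3), and that of an H3K27me3 peak was 2001 and 1915 bp, a mean of 1958 bp ± 60.8 (SD, n = 2). H3K27me3 peaks were therefore nearly 1 log2 unit wider, with a difference of −0.93 for H2Aub minus H3K27me3 and no overlap between the libraries. The widest peaks differed more, since 5% of peaks exceeded 3266 to 3825 bp for H2Aub and 8553 to 8676 bp for H3K27me3. Peaks over 2 or more genes of any type made up 20.5%, 21.5% and 25.9% of H2Aub peaks and 28.7% and 27.6% of H3K27me3 peaks. This difference shrank from −0.30 to −0.02 on the logit scale when all deposited peaks were used, whose lowest q-value threshold differs between the marks.

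H2Aub peaks were mostly genic. The share of peak length outside annotated genes was 18.8%, 19.2% and 21.3% for H2Aub, a mean of 19.8% ± 1.36 (SD, n = 3), and 44.9% and 45.8% for H3K27me3, a mean of 45.3% ± 0.643 (SD, n = 2), beside 44.5% of the nuclear genome. These genes do not include pseudogene features. By this measure H3K27me3 peaks lay outside genes about as often as the genome does, and H2Aub peaks less often. Sequence outside both these genes and all annotated exons made up 41.8% and 43.4% of H3K27me3 peak length, above the 36.3% of the genome. It made up 16.8% to 19.7% of H2Aub peak length. Coding sequence made up 48.1% to 53.4% of H2Aub peak length and 31.2% to 31.9% of H3K27me3 peak length, beside 28.3% of the genome. Within 500 bp on either side of annotated starts lay 39.2%, 41.9% and 42.1% of H2Aub peak length and 29.8% and 30.1% of H3K27me3 peak length, beside 24.7% of the genome.

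On the genes they touched, H3K27me3 peaks covered more of the gene. The median share of gene length covered, over the protein-coding genes with a peak in the library, was 57.2%, 49.4% and 51.2% for H2Aub and 89.2% and 89.6% for H3K27me3, a difference of −2.03 on the logit scale. These genes had a median length of 1960, 2065 and 2096 bp for H2Aub and of 1635 and 1643 bp for H3K27me3. The final 10% of the gene, read at its middle, was covered in 25.6%, 24.4% and 29.5% of genes with an H2Aub peak and in 58.3% and 58.2% of those with an H3K27me3 peak. The first 10% was covered in 54.3%, 58.1% and 64.6% and in 71.2% and 72.7%. Both ends of the gene were thus covered more often by H3K27me3, with the larger gap at the end of the gene, at −1.36 against −0.58 on the logit scale.

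In all, 11 such measures were compared between the 3 H2Aub and the 2 H3K27me3 libraries by an exact permutation test, two-sided, on the log2 scale for lengths and the logit scale for shares. With 3 against 2 libraries this test cannot give a p below 0.1. The smallest value was reached by 6 measures, namely peak width, length near gene starts, length outside genes, the length and covered share of genes with a peak, and cover of their final 10% (exact permutation p = 0.1, Benjamini-Hochberg adjusted p = 0.183). The values of the marks were also apart for peaks over 2 or more genes and for cover of the first 10%, but another assignment of the libraries gave a difference as large (exact permutation p = 0.2, adjusted p = 0.22). The other 3 measures, of cover on genes with both marks, rest on the calls that chose those genes and are given as a description. No measure could or did pass 0.05. With all deposited peaks the difference in peak width was −0.56 in place of −0.93, and that in cover of the first 10% −0.33 in place of −0.58. The deposited lists reach down to a −log10 q of 3.00 for H2Aub and of 1.05 and 1.01 for H3K27me3, so this setting compares unlike thresholds.

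The position of H2Aub along the gene differed between the classes, where a gene without a peak in a library counts as uncovered in it. On the 8929 protein-coding H2Aub-only genes, H2Aub cover was highest between 10% and 20% of the gene length in all 3 libraries, at 46.5%, 71.5% and 79.6% of genes. It declined from there to 13.1%, 20.4% and 28.0% in the final 10%. The 100 bp before the start were covered in 18.5%, 32.3% and 40.8%. Cover was thus highest inside the start and reached into the gene body, with a median centre of the covered bases at 0.37, 0.33 and 0.37 of the gene length.

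On the 3910 protein-coding genes with both marks, H2Aub cover was broader. It was highest between 20% and 30% of the gene in each library, at 69.7%, 77.4% and 84.8% of genes, and was still 65.1%, 70.9% and 78.8% between 50% and 60%, where H2Aub-only genes had 32.1%, 42.7% and 48.5%. The median centre lay at 0.47, 0.46 and 0.49 of the gene length. Among genes with a peak in the library, H2Aub covered a median of 1031, 997 and 1160 bp when H3K27me3 was also present and 777, 742 and 875 bp when it was not. All 3 libraries thus had the longer H2Aub cover on the genes with both marks, which were the shorter genes. Genes in the 2 classes come from the same libraries, so this is a difference within each library and no test was made over genes.

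H3K27me3 cover was broad over the middle of the gene. On genes with both marks it was highest between 30% and 40% of the length in both libraries, and it covered 85.6% and 88.1% of genes between 40% and 50% of the length, 68.6% and 75.7% in the first 10% and 53.4% and 58.7% in the final 10%. H2Aub replicate 3 covered up to 18.9% of H3K27me3-only genes at a position, between 20% and 30% of the length, and the other replicates 0.913% and 0.856% there. On the 1753 protein-coding H3K27me3-only genes H3K27me3 reached further out, with 78.7% and 83.2% in the first 10% and 70.1% and 73.6% in the final 10%. Cover of the sequence 900 to 1000 bp after the gene was 31.7% and 36.1% for genes with both marks and 51.3% and 54.4% for H3K27me3-only genes. In both libraries, about 1 in 2 H3K27me3-only genes were covered over their full length, at 49.0% and 55.4%, beside 31.7% and 36.9% of genes with both marks.

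**Figure D3:**
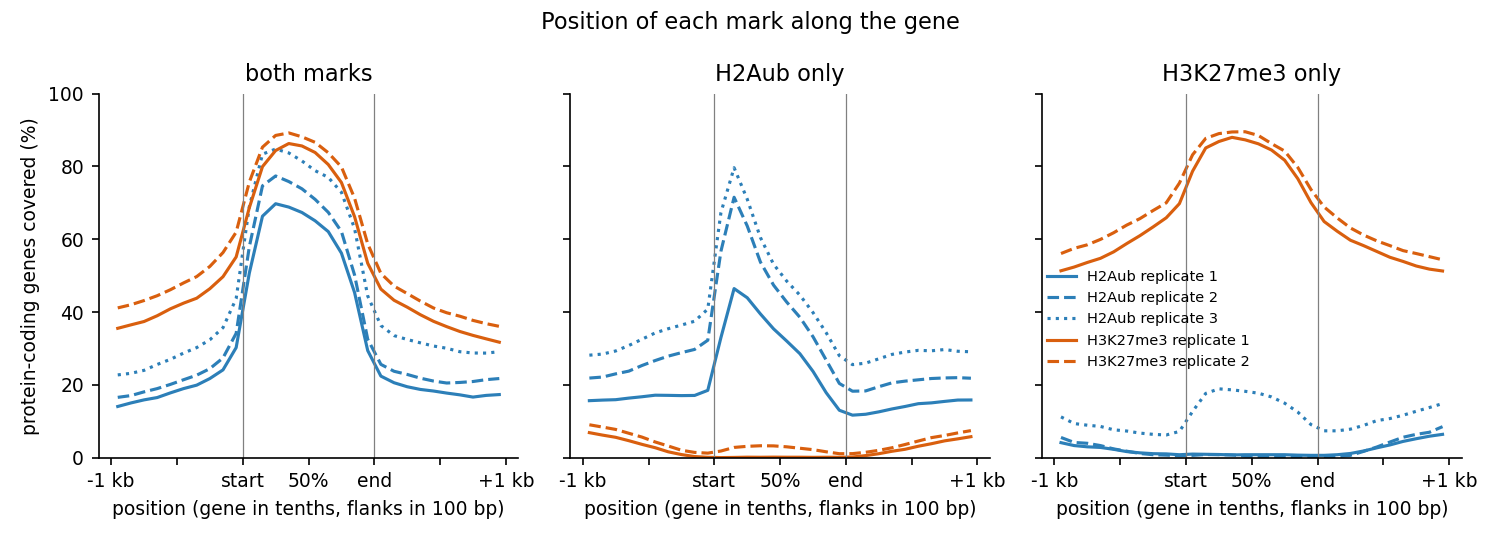
Share in percent of protein-coding genes covered by a peak at each position, from 1 kb before the start, through the gene cut into bins of 10% of its length, to 1 kb after the end, with 1 line per library (blue H2Aub, orange H3K27me3). H2Aub is highest at 10% to 20% of H2Aub-only genes and at 20% to 30% of genes with both marks, and H3K27me3 cover is broader across the gene and extends further into the flanks.

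The extent of each mark was compared where both were called. Over the protein-coding genes with both marks, 81.0% to 87.6% of H2Aub peak length was also under an H3K27me3 peak in the 6 pairings, and 59.8% to 75.5% of H3K27me3 peak length was also under H2Aub. On the same genes the mean share of the gene covered was 58.0%, 64.1% and 73.6% for H2Aub and 76.3% and 80.5% for H3K27me3, so a high shared length is largely set by the choice of genes. The class asks for a peak in both H3K27me3 libraries and in 2 of the 3 H2Aub libraries, and 3329, 3785 and 3906 of the 3910 genes had an H2Aub peak in replicates 1, 2 and 3, the rest entering the means at 0. The difference in mean cover was −0.65 on the logit scale, and −0.42, −0.32 and −0.46 when H2Aub replicate 1, 2 or 3 was left out and a peak was asked of both others. On genes over 4000 bp, H2Aub covered a mean of 28.4%, 31.7% and 41.0% and H3K27me3 53.4% and 58.7%.

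The extent of the marks varied from gene to gene. Among the 3200 protein-coding genes with a peak in all 5 libraries, both H3K27me3 libraries covered more bp than any H2Aub library on 1237 (38.7%), and all 3 H2Aub libraries covered more than any H3K27me3 library on 751 (23.5%). The other genes overlapped. H2Aub was centred nearer the start than H3K27me3 in every library on 1067 genes (33.3%), and H3K27me3 was nearer the start on 850 (26.6%). On 1763 genes, 55.1%, at least 90% of H2Aub length lay under H3K27me3 in every pairing. No base lay under both in any pairing on 13 genes (0.406%). These genes were chosen for having both marks in every library, which favours shared bases.

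Peaks were also compared within each library by the class of their gene. The fold of the highest peak on the gene, the authors' ratio of signal over background, had a median of 2.55, 2.97 and 3.01 on genes with both marks and 2.43, 2.76 and 2.83 on H2Aub-only genes in H2Aub replicates 1, 2 and 3. For H3K27me3 the medians were 2.79 and 3.84 on genes with both marks and 2.69 and 3.62 on H3K27me3-only genes. In all 5 libraries the median was higher on genes with both marks, but the quartiles overlapped widely, for example 2.40 to 4.09 against 2.30 to 3.70 in H2Aub replicate 3. The widest peak on a gene moved in opposite ways. H2Aub peaks had a median of 1494, 1439 and 1829 bp on genes with both marks against 1174, 1168 and 1505 bp on H2Aub-only genes, whereas H3K27me3 peaks had 2540 and 2936 bp on genes with both marks against 4197 and 4586 bp on H3K27me3-only genes.

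Gene function was read from 27 lists built on the annotated product and symbol, and every share is set beside all protein-coding genes, of which 14.2% had both marks, 32.5% H2Aub only, 6.39% H3K27me3 only and 46.8% neither. Members of a list are often neighbours or close copies, so the shares are descriptions. Transcription factor families were mostly marked. Of 113 AP2/ERF genes, whose products act in ethylene and stress responses, 42 had both marks, 54 H2Aub only, 4 H3K27me3 only and 13 neither. Of 83 homeobox genes, which include regulators of meristem and leaf identity, 30 had both and 34 H2Aub only. MYB genes, with roles in secondary metabolism and cell fate, were more often under H3K27me3: of 124, 48 had both and 23 H3K27me3 only. WRKY, NAC and bHLH genes had both marks on 29 of 73, 36 of 107 and 43 of 133. Only 11.5% to 27.1% of these 6 families had neither mark.

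Among them the MADS-box family stood apart in its split. Of 121 MADS-box genes, 31 had H3K27me3 only, 27 both, 23 H2Aub only and 40 neither, so H2Aub marked 41.3%, less than the 46.8% of all protein-coding genes, while H3K27me3 marked 47.9% beside 20.6%. The H3K27me3-only members with the longest cover were AG, AGL14 and STK, the last of which acts in ovule identity. H3K27me3 covered all 4907 bp of STK and all 4470 bp of AGL14 in both libraries. H2Aub covered 0 bp of STK in all 3 libraries, and 0, 0 and 1325 bp of AGL14.

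F-box genes, which encode the substrate-binding subunits of SCF ubiquitin ligases, were also more often under H3K27me3 alone: 184 of 653 were, 145 had both, 102 H2Aub only and 222 neither. H2Aub was found on 24.0%, 36.3% and 52.7% of them in the 3 libraries, against 33.3%, 46.5% and 59.0% of all protein-coding genes, so it lay below the background in each. Defensin-like and small cysteine-rich peptide genes, with a median length of 557 bp, were mostly unmarked (141 of 220), and their marked members were most often H3K27me3-only (41, beside 21 with both and 17 with H2Aub only). LCR7 and LCR17 of this list had H3K27me3 over their full 1385 and 1263 bp in both libraries and 0 bp of H2Aub in all 3.

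Genes of specialised metabolism, the cell wall and seeds often had both marks. Both were found on 37 of 67 class III peroxidases, which act in the cell wall, 33 of 66 seed storage, oleosin and LEA genes, 59 of 129 pectin methylesterases and their inhibitors, 21 of 46 terpene synthases and 94 of 249 cytochrome P450 genes. Of the terpene synthases, 12 more were H3K27me3-only, a share of 26.1%, second among the 27 lists to that of F-box genes. CRU3, which encodes the seed storage protein cruciferin, was covered over all 2241 bp by both marks in all 5 libraries. On its relative CRU2, H2Aub covered 2242, 2334 and 2357 of 2396 bp and H3K27me3 all of them. On NAC074, H2Aub covered 2212, 2172 and 2231 bp and H3K27me3 all 4414 bp in both libraries. H3K27me3 was thus the longer mark in every library, as on 38.7% of protein-coding genes with a peak in all 5 libraries.

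Photosystem and pentatricopeptide repeat genes were marked almost only by H2Aub. Of 60 photosystem and light-harvesting genes, 42 had H2Aub only, 1 H3K27me3 only and 17 neither, and none had both. The share with an H2Aub peak was 43.3%, 70.0% and 88.3% in the 3 libraries, beside 33.3%, 46.5% and 59.0% of all protein-coding genes. LHCB4.3, an antenna protein of photosystem II, was covered over 1594, 1656 and 1797 of 1797 bp by H2Aub and by no H3K27me3 peak. Of 279 pentatricopeptide repeat genes, whose products process organelle RNA, 129 had H2Aub only, 2 both and 3 H3K27me3 only. Their H2Aub share was 27.6%, 46.2% and 60.2%, close to that of all protein-coding genes, while their H3K27me3 shares of 1.79% and 2.15% lay far below 21.0% and 23.7%.

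Auxin-responsive SAUR genes had H2Aub only on 45 of 79 and both marks on 15, and UDP-glycosyltransferases on 61 and 30 of 132. Receptor-like protein kinases had H2Aub only on 178 of 389 and both marks on 35. EXPA8, an expansin that loosens cell walls, was covered by H2Aub over all 1915 bp in all 3 libraries, without H3K27me3. Of 34 expansins, 13 had H2Aub only and 12 both. NLR immune receptors, with a median length of 4227 bp, had H2Aub only on 63 of 159, both on 22, and neither on 64, near the shares of all protein-coding genes. Of 45 Aux/IAA and auxin response factor genes, 14 had H2Aub only and 11 both.

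Ribosomal protein, proteasome subunit and aminoacyl-tRNA synthetase genes were mostly unmarked. Neither mark was found on 241 of 332 ribosomal protein genes, 30 of 38 proteasome subunit genes and 37 of 64 aminoacyl-tRNA synthetase genes, that is, 72.6%, 78.9% and 57.8% beside 46.8% of all protein-coding genes. H3K27me3 was on 24 of the ribosomal protein genes and 1 of the proteasome subunit genes. H2Aub was on 10.2%, 24.1% and 41.0% of the ribosomal protein genes in the 3 libraries, below all protein-coding genes in each. Histone genes had H2Aub only on 10 of 20 and neither mark on 7, a share of 35.0%. Heat shock protein genes had H2Aub only on 34 of 77, both on 8 and neither on 35.

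**Figure D4:**
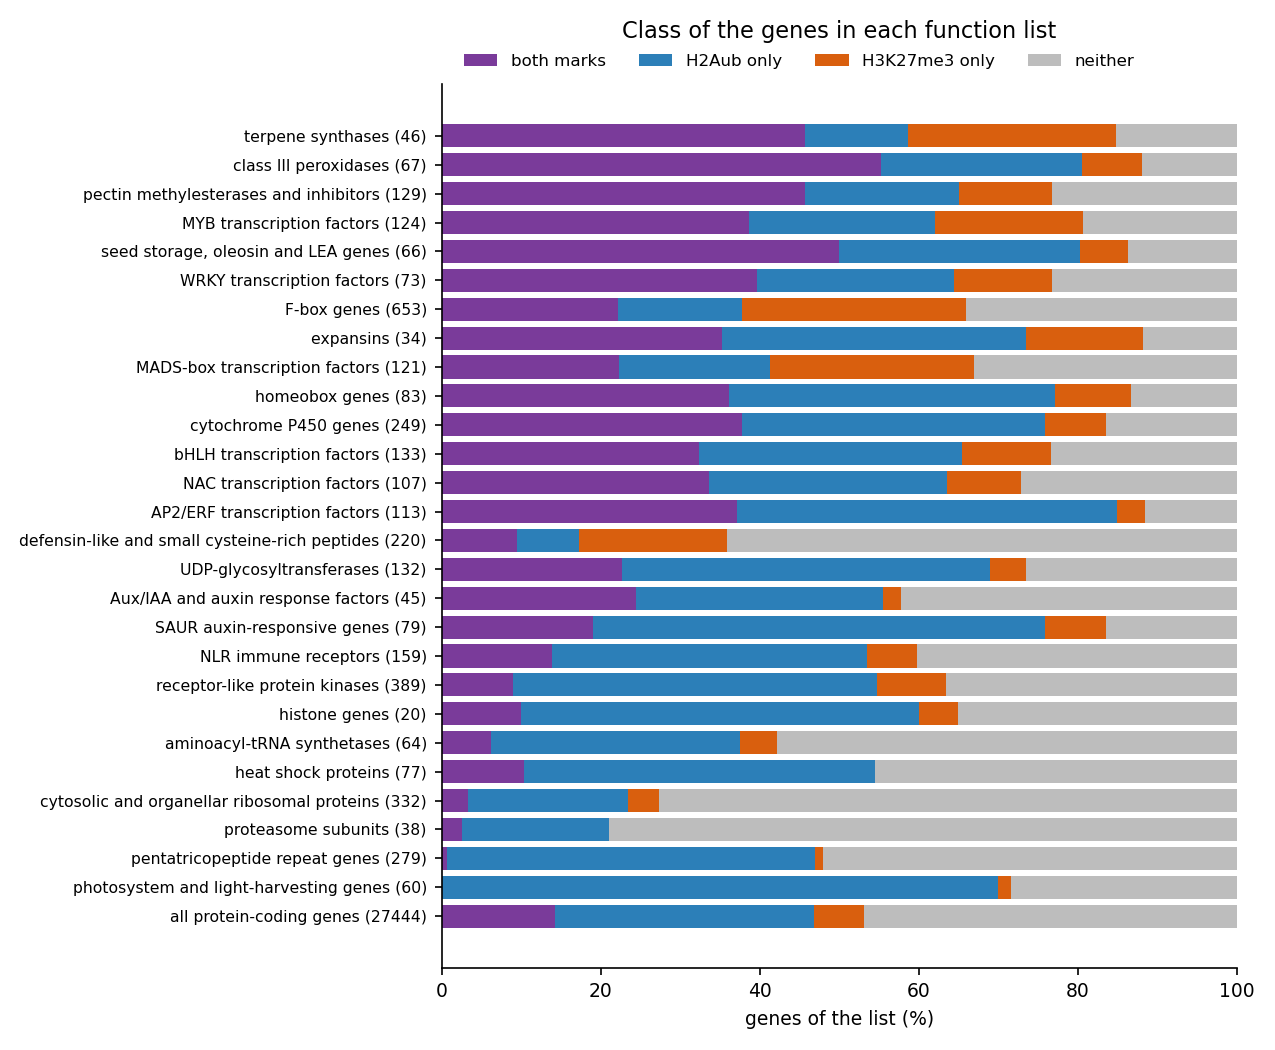
Share in percent of the genes of each list in each class, with the number of genes of the list in brackets and the lists in order of their H3K27me3 share above the row of all protein-coding genes. Grey is highest for ribosomal proteins (72.6%) and proteasome subunits (78.9%), orange for F-box (28.2%), terpene synthase and MADS-box genes, and photosystem genes are 70.0% blue.

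Single loci were read from a list of 68 genes of flowering, seed development, meristems, hormones, the clock, Polycomb proteins and housekeeping, of which 21 had both marks, 14 H2Aub only, 14 H3K27me3 only and 19 neither. These loci were chosen by name with earlier results of these data known, so the counts describe the choice. All 31 genes of the flowering, seed and meristem sets were marked, and 13 of them by H3K27me3 alone. Of all protein-coding genes, 46.8% had neither mark and 6.39% H3K27me3 alone. None of the 7 clock genes and 9 housekeeping genes had H3K27me3, beside 20.6% of all protein-coding genes.

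Floral organ identity genes had H3K27me3 without H2Aub. AG, which specifies stamens and carpels, lies on chromosome 4 from 10382856 to 10388539, plus strand. H3K27me3 covered all of its 5684 bp in both libraries, and H2Aub covered 0 bp in all 3. AP1, a regulator of floral meristem and sepal identity, had 4049 and 4056 of 4056 bp under H3K27me3 and none under H2Aub. SEP1, SEP2 and SEP3, cofactors of the organ identity genes, had 83.4% to 95.9% of their length under H3K27me3 on average and no H2Aub peak in any library. AP3 and PI, which specify petals and stamens, had means of 95.3% and 93.9%, and H2Aub covered 376 and 656 bp of them in replicate 3 alone. On each of these 7 genes both H3K27me3 values lay above all 3 H2Aub values. All are H3K27me3-only genes, a class that asks for a peak in both H3K27me3 libraries and leaves out genes with H2Aub in at least 2 libraries. That order is therefore largely set by the class and is given as a description.

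Genes that time flowering more often carried both marks, in unequal extent. FLC, a repressor of flowering, lies on chromosome 5 from 3173382 to 3179448, minus strand. H3K27me3 covered 5810 and 5938 of its 6067 bp, and H2Aub covered 543, 1022 and 1221 bp, in each library including the annotated start. H2Aub thus covered a short part of a gene that H3K27me3 covered nearly whole. FT, the mobile signal that promotes flowering, had 2482 and 2627 of 2627 bp under H3K27me3, and 0, 516 and 354 bp under H2Aub. Its relative TSF was covered almost completely by both, with 2086, 2105 and 2129 bp under H2Aub and all 2240 bp under H3K27me3. SOC1, an integrator of flowering signals, had 1271, 1206 and 1483 of 3621 bp under H2Aub and 2912 and 2778 bp under H3K27me3. The neighbours MAF4 and MAF5, relatives of FLC, had H2Aub in 2 libraries and in 1.

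Among regulators of seeds and embryos the marks split again. FUS3 and LEC2, which promote embryo maturation, were covered completely by H3K27me3 in both libraries, with no H2Aub on FUS3 and 358 bp in replicate 3 alone on LEC2. ABI3, which acts with them, had 3314, 3103 and 3210 of 3816 bp under H2Aub and 3661 and 3757 bp under H3K27me3. LEC1 had a short stretch of each, 647, 680 and 701 bp of H2Aub and 732 and 772 bp of H3K27me3 in 2073 bp. DOG1, a regulator of seed dormancy, was the 1 locus of this set in which H2Aub covered more than H3K27me3 in every library, with 1475, 1670 and 1623 of 2089 bp against 1346 and 1471 bp. That order was found on 23.5% of the protein-coding genes with a peak in all 5 libraries. MEA, a PRC2 methyltransferase of the endosperm, had 3699 and 3773 of 4470 bp under H3K27me3 and no H2Aub.

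The meristem genes gave examples of every marked class. STM, which maintains the shoot meristem, had 3267 and 3276 of 3482 bp under H3K27me3 and no H2Aub peak, and KNAT1 was covered over all 3461 bp by H3K27me3 with 885 bp of H2Aub in replicate 3 alone. WUS, which keeps stem cells in the shoot meristem, had 1770, 986 and 1815 of 1941 bp under H2Aub and all of it under H3K27me3. The 3 CUC genes, which mark organ boundaries, differed from each other. CUC1, on chromosome 3 from 5109782 to 5111608, plus strand, was covered over all 1827 bp by H2Aub in all 3 libraries and by 0 and 656 bp of H3K27me3. CUC2 had 2151, 1915 and 1996 bp of H2Aub and all 2151 bp of H3K27me3. CUC3 had 1984, 1974 and 2024 of 2240 bp under H2Aub and 899 and 920 bp under H3K27me3. H2Aub was thus the longer mark in every library, as on 23.5% of protein-coding genes with a peak in all 5 libraries.

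Of the 10 hormone and light genes, 4 had both marks, 5 H2Aub only and 1 neither. YUC1, an enzyme of auxin synthesis, had 2172, 2144 and 2172 of 2172 bp under H2Aub and 2079 and 2131 bp under H3K27me3. Its relative YUC4 had 2318, 2190 and 2394 of 2394 bp under H2Aub and all of it under H3K27me3. ACS8, an enzyme of ethylene synthesis, had 1722, 1810 and 1853 of 2079 bp under H2Aub and 1834 and 1989 bp under H3K27me3. PIN3, an auxin carrier, had 2590, 2482 and 2875 of 3530 bp under H2Aub and no H3K27me3. HY5, which promotes light responses, and MYC2, a regulator of jasmonate responses, had 1124 to 1615 bp and 1479 to 1567 bp of H2Aub and no H3K27me3. GA3OX1, an enzyme of gibberellin synthesis, had 1324, 1467 and 1489 bp of H2Aub, and 0 and 500 bp of H3K27me3.

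**Figure D5:**
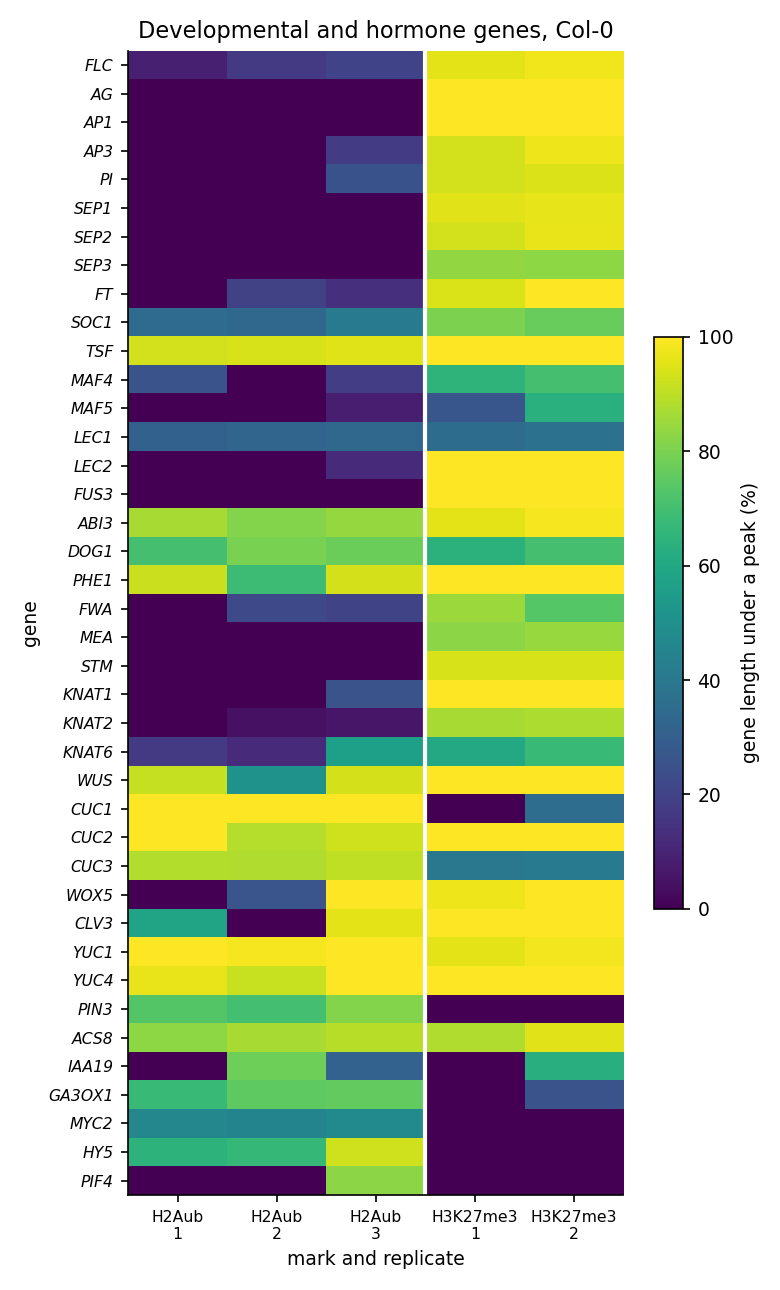
Share in percent of the length of each gene under a peak, by colour, in the 3 H2Aub and 2 H3K27me3 libraries (columns), for loci of the flowering, seed, meristem and hormone sets (rows). AG, AP1, the SEP genes, FUS3, MEA and STM are dark in all 3 H2Aub columns and bright in both H3K27me3 columns, and PIN3, MYC2 and HY5 are covered in the H2Aub columns alone.

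Of 11 genes of Polycomb proteins and their antagonists, 7 were unmarked, among them CLF, EMF2 and LHP1. RING1A and BMI1A, which belong to PRC1, had 647, 967 and 900 bp and 851, 1025 and 1082 bp of H2Aub and no H3K27me3. EMF1 had 2302 and 2420 of 5758 bp under H3K27me3 and no H2Aub. UBP5, the deubiquitinase gene of the series, had an H2Aub peak in 1 library. Of the clock genes, LHY, PRR9 and ELF4 had H2Aub only, and CCA1, TOC1, PRR7 and GI had neither. Of the housekeeping genes, ACT2, ACT7, ACT8, PP2AA3, EIF4A1 and HTA9 had no peak in any of the 5 libraries, TUB2 and UBQ10 had H2Aub in replicates 2 and 3, and GAPC1 in replicate 3. Of the 31-base words of TUB2, UBQ10 and PRR9, 26.6%, 21.8% and 32.6% occur elsewhere in the nuclear chromosomes.

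Outside the fixed loci, the genes with the longest cover were taken by class. Of those with H2Aub in all 3 libraries and no H3K27me3 peak, BXL1, a beta-xylosidase of the cell wall, had 4489, 4642 and 4713 of 5046 bp covered. KAT1, a potassium channel of guard cells, was covered over all 3897 bp in every library, and NIA1, a nitrate reductase, over 3536, 3764 and 3764 of 3764 bp. H2Aub thus covered nearly the whole of these genes, without H3K27me3. The longest H3K27me3-only genes were MEE57, annotated as a DNA methyltransferase family member, with all 6210 bp covered, AG, and the cellulose synthase-like genes CSLB06 and ATCSLB05, followed by PEN3, a triterpene synthase. Of CSLB06 and ATCSLB05, 40.8% and 22.0% of the 31-base words occur elsewhere in the nuclear chromosomes, so reads could be shared with copies. Of genes with both marks, GA1, which acts early in gibberellin synthesis, had 2488, 2733 and 3644 of 7152 bp under H2Aub and 6088 and 6140 bp under H3K27me3. TGA10, a bZIP factor, had 4281, 4255 and 3629 of 5986 bp and 5866 and 5880 bp. AT2G08986 had the longest sum, but 81.7% of its words are repeated elsewhere.

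Motifs that have been tied to Polycomb recruitment in plants were searched on both strands in a window of 500 bp upstream and 250 bp downstream of the gene start. The telobox AAACCCTA was found at 20.6% of H3K27me3-only genes, 14.1% of genes with both marks, 11.8% of H2Aub-only genes and 18.4% of unmarked genes, beside 16.0% of all nuclear genes. In each of the 6 pairings it was most frequent at H3K27me3-only genes (18.9% to 20.3%). Genes with both marks (12.4% to 15.0%) lay above H2Aub-only genes (9.13% to 13.8%) within each pairing, though their ranges over the pairings overlapped. In a window of 250 bp upstream and 50 bp downstream the shares were 11.4%, 6.44%, 4.25% and 6.49%, beside 6.16%. The telobox was thus most frequent at H3K27me3-only genes in both windows, while unmarked genes lay close to them in the longer window alone. GAGAGAGA had another order, with 15.8% of H3K27me3-only genes, 22.0% of genes with both marks, 26.6% of H2Aub-only genes and 22.2% of unmarked genes, beside 23.0% of all genes. In the shorter window it was found at 7.43%, 8.95%, 7.96% and 7.61% of these classes, beside 7.87%, and so in another order. CTCCTCC was at 10.8%, 12.6%, 14.6% and 12.4%, beside 13.0%. Matches of the motifs may overlap one another, and a match is not a binding site.

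This shorter window is shown for 1 gene of each marked class whose start was covered in every library of its marks, and for FWA, the first of the fixed loci whose window holds a telobox, which was chosen after its sequence was seen. It is given 5′ to 3′ on the strand of the gene, from the RefSeq TAIR10.1 assembly, with motif matches in capitals. FLC (both marks, chr5:3179399-3179698), CUC1 (H2Aub only, chr3:5109532-5109831) and AG (H3K27me3 only, chr4:10382606-10382905) have no match in this window, and FWA (both marks, chr4:13038110-13038409), an imprinted gene of the endosperm, has 1 telobox in reverse, at bases 9 to 16 after the start. Teloboxes were in this window at 4 of the 68 fixed loci.
FLC: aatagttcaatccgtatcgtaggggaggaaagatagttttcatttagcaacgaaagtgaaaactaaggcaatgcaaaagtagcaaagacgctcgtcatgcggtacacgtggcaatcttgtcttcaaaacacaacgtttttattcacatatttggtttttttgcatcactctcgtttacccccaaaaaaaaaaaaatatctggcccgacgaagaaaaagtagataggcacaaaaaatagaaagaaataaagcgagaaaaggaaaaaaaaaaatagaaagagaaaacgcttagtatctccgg
CUC1: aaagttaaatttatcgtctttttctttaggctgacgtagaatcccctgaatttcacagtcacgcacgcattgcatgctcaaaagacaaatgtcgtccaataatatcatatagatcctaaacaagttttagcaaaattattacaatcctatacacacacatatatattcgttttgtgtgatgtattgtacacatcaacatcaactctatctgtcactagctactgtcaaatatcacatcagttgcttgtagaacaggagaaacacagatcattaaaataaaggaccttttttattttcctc
AG: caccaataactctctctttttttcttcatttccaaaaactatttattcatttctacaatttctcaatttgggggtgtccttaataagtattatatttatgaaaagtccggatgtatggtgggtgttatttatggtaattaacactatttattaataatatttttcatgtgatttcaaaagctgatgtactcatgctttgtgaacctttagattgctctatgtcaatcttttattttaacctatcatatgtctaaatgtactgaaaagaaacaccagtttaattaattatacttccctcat
FWA: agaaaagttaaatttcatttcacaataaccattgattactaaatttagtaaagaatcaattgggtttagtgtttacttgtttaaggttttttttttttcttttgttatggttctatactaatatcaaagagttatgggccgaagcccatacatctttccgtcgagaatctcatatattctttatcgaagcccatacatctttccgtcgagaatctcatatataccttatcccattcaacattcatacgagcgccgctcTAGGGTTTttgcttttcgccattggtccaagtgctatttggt

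Marked genes had marked neighbours more often than other genes did. Of protein-coding genes with H2Aub, 80.2% had a protein-coding neighbour with H2Aub on at least 1 side, beside 69.5% of all protein-coding genes and 59.99% of those without H2Aub. Of those with H3K27me3, 67.9% had a neighbour with H3K27me3, beside 34.9% of all and 26.4% of those without it. Neighbours under 1 peak are marked together by construction, and 15.8% to 20.9% of H2Aub peaks and 21.3% to 22.4% of H3K27me3 peaks overlapped 2 or more protein-coding genes. Runs of 4 or more neighbours held 43.0% of the H2Aub genes and 25.8% of the H3K27me3 genes. H2Aub marked 46.8% of protein-coding genes and H3K27me3 20.6%, so these run shares do not compare how clustered the marks are. The longest H2Aub run held 23 genes on chromosome 4, from 17515042 to 17595148. It contained 8 members of the CYP81 family of cytochromes P450, of which CYP81H1 and CYP81D2, D3, D4, D5 and D8 had H2Aub only and CYP81F3 and CYP81F4 both marks.

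The longest H3K27me3 run, of 28 genes on chromosome 5 from 20555120 to 20627720, lies in a segment that is repeated in tandem, and all but 4 of its genes had 99.6% to 100% of their 31-base words elsewhere in the nuclear chromosomes. Calls in it are uncertain, since reads cannot be placed on 1 copy. When genes with more than 50% of repeated words were left out, the longest run held 21 genes on chromosome 3, from 7703799 to 7772357. Within its span lay the longest H3K27me3-only run, counted over all genes. That run held 14 genes from AT3G21950 to AT3G22057, which are mostly secreted proteins with cysteine-rich repeats and related receptor-like genes. Of these 14, AT3G22000 had 74.0% of its words repeated and was left out of the 21, and AT3G21990 had 47.7%. H2Aub peaks were called on 2 of those 14, on each in 1 library alone, with means over the 3 H2Aub libraries of 284 and 287 bp. Genes over this limit of repeated words made up 1.76% of genes with both marks, 0.773% of H2Aub-only, 2.91% of H3K27me3-only and 2.96% of unmarked protein-coding genes.

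Genes of other types were marked less often. Of 326 miRNA genes, with a median length of 144.5 bp, 64 had H3K27me3 only, 36 H2Aub only, 28 both and 198 neither. The H3K27me3-only share of 19.6% was above the 6.39% of protein-coding genes. Long non-coding RNA genes had H2Aub only on 655 of 3480, H3K27me3 only on 405 and both on 196. Of 625 tRNA genes 574 had neither, and of 287 snoRNA genes 254. Of 4843 pseudogene features, which are not among the 33056 genes, 88.2% had neither mark, 242 had H3K27me3 only, 171 H2Aub only and 158 both. Peaks carry no strand, so a peak over overlapping genes was counted for each of them.

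The 5 chromosomes were alike, with both marks on 11.5% to 14.0% of their genes, H2Aub only on 28.0% to 33.3% and H3K27me3 only on 6.32% to 7.45%.

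The same 11 measures were read in the libraries of ubp5, a CRISPR/Cas9 deletion mutant of the deubiquitinase gene UBP5, in which 3 H2Aub and 2 H3K27me3 lists are available from seedlings of the same age. The mean difference between the marks had the same direction as in Col-0 in all 11. The median share of gene length covered was 36.8% to 41.2% for H2Aub and 83.9% to 84.0% for H3K27me3, and peak width was 838 to 1003 bp and 1719 to 1730 bp. The values of the marks overlapped there in 5 measures, against 1 in Col-0. These were peaks over 2 or more genes, at 20.4% to 28.1% and 24.9% to 25.8%, cover of the first 10%, and all 3 measures on genes with both marks. Those 3 were read on the genes called with both marks in Col-0, a choice that favours cover in the Col-0 libraries. Mean cover of these genes in ubp5 was 38.1% to 75.0% for H2Aub and 65.1% to 68.0% for H3K27me3. Of the Col-0 genes with both marks, 3312 of 4191 had both in ubp5, and 1536 of 2316 H3K27me3-only genes stayed in their class by the same rule.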

How the data were processed

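ChIP-seq peaks were analysed from 12-day-old Col-0 seedlings, 3 H2Aub and 2 H3K27me3 libraries, grouped by their labels. The submitters' processing notes name STAR 2.7.8a and MACS3 3.0.0, and the authors called broad peaks in each library against input. The deposited lists give a score per peak, its fold (a ratio over background), and −log10 of its p- and q-value. The lists were deposited after calling, so read depth is not used here, and it limits what was called. The lowest −log10 q was 3.00 in the H2Aub lists, and 1.05 and 1.01 in the H3K27me3 lists.

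Peaks with a score over 30 were intersected with the nuclear genes of the RefSeq annotation of TAIR10.1, in Python 3.11.15 with NumPy 2.4.6, SciPy 1.17.1 and Matplotlib 3.10.9. A gene was marked with 1 bp of overlap in at least 2 libraries of the mark. Library measures were compared by an exact permutation test, two-sided, with Benjamini-Hochberg adjustment over 11 tests. Class shares, gene lists and motifs were described without a test. Tested on simulated peaks, 200 of 200 planted genes among 33056 were put in their class. Each planted peak lay within 1 protein-coding gene away from other genes, so this checks the code and not the calls in the data.

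The members and lists were chosen with earlier results of these data known. Genes named were the 68 fixed loci, the 5 of each marked class with the longest cover, and at most 3 per list with the longest cover in the list's largest marked class. BMI1B and RPL4A matched no symbol and are not analysed here, and 1 fixed locus is counted but not reported here by name. Alternatives changed the score minimum, the number of libraries, the overlap rule, the covered length, the libraries left out and the replicate block. Leaving out repeated genes was added after seeing the data.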

Additional observations from a re-analysis of the deposited data

How the results depend on the processing

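The 11 differences between the marks kept their direction in all 109 alternatives, and 97 stayed within 1.5 times the reported value. The other 12 were, for peaks over 2 or more genes (−0.30), −0.02 with all deposited peaks and −0.60 with the same covered length, for peak width (−0.93) −0.56 with all deposited peaks, and for the first 10% of genes with a peak (−0.58) −0.33 and −0.97 under these settings. On genes with both marks, mean cover (−0.65) was −0.42 and −0.32 without H2Aub replicates 1 and 2, and cover of the first 10% (−0.58) was −0.31 with all deposited peaks, −3.59 where the start had to be covered, −0.33 and −0.27 without H2Aub replicates 1 and 2, and −0.38 without H3K27me3 replicate 2. Of 151 alternatives of the 11 other main results, 49 moved, by over 1.5 times for counts of genes and by over 1 SD of the 6 pairings for the rest. Of the values for single loci, lists and other descriptions, 1390 stayed within 1 SD of the libraries and 412 did not or, for motifs, had no such margin.

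Genes with both marks numbered 4191 and, in the alternatives that moved them, 2149 with lists cut to the same covered length, 2590 with a score over 60, 2614 where at least 50% of the gene had to be covered and 1437 with a peak over the gene start. H2Aub-only genes numbered 9865 and then 6034 with a peak in every library, 4786 with at least 50% cover, 4340 with the start covered, and 6065 to 9821 when 1 library was left out. The share of H3K27me3 genes with H2Aub was 64.4% and then 48.9% with the same covered length, 74.2% with a peak in at least 1 library, 52.1% in every library, 48.9% with 50% cover, 33.5% over the start, 49.0% with a score over 60, and 52.2% to 64.0% with 1 library left out.

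Median length was 1725 bp with both marks and moved to 1749 with all deposited peaks, 1703 with the same covered length, 1444 with 50% cover, 1403 over the start and 1706 with a score over 60. H2Aub-only genes (2230 bp) moved to 2094.5 with the same covered length, 2300 and 2133 with at least 1 and every library, 1607 with 50% cover, 2019 over the start, 2143 with a score over 60 and 2130 to 2254 with 1 library left out. H3K27me3-only genes (1425 bp) moved to 1500 with the same covered length, 1508 with every library, 1616 with 50% cover, 1517 over the start, 1508 with a score over 60 and 1428 to 1508 with 1 library left out. Unmarked genes (2192 bp) moved to 2136 with at least 1 library and 2382 with 50% cover.

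On genes with both marks, 84.5% of H2Aub length lay under H3K27me3, and 80.2% with all deposited peaks, 89.7% with the same covered length, 77.1% with at least 1 library, 93.1% with 50% cover, 90.9% over the start and 87.4% with a score over 60. Of H3K27me3 length 67.1% lay under H2Aub, and 74.3% with every library, 82.8% with 50% cover, 75.5% over the start and 67.2% to 74.7% with 1 library left out. The causes were not tested.

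The replicate numbers were taken as numbers only, since the labels do not say what a number shares between the antibodies. The correlation of deviations was 0.0682 for equal numbers and −0.0682 for unequal numbers. With only 2 pairs these values mirror each other, so they cannot decide whether libraries share chromatin. The permutation test takes all 5 libraries as independent, which was not tested. With the replicate block the 11 differences were −0.96 for peak width, 0.47 near starts, −1.26 outside genes, −0.39 for peaks over 2 or more genes, 0.30 for gene length, −2.00 for the covered share, −0.69 and −1.43 for the first and final 10%, and −0.85, −0.79 and −1.05 for the 3 measures on genes with both marks. The covered share had no value with the same covered length or over the start, where the H3K27me3 median reached the full gene. With 3 against 2 libraries no test could pass 0.05, so the side of that threshold says nothing about stability.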
